A study of Mus musculus with 118 samples.

Results

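Reelin, encoded by *Reln*, the receptors encoded by *Vldlr* and *Lrp8*, and the adaptor encoded by *Dab1* were followed in single SOM+ cells of the mouse neocortex. These 4 genes, chosen by name, are the members of 23998 gene symbols in the count table. Among the cells kept for the comparisons, *Reln* was counted in 93.6%, *Lrp8* in 78.9%, *Vldlr* in 64.2% and *Dab1* in 33.9%. *Reln* was high in L4 of both areas and in S1 L5, and was lower in V1 L5.

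Reelin is a large glycoprotein that cells secrete into the extracellular matrix. It binds the receptors Vldlr and Lrp8 (also called ApoER2) on the surface of other cells, and these receptors pass the signal to the adaptor Dab1, which Src family kinases then phosphorylate. In the embryonic cortex the protein comes mainly from Cajal-Retzius cells and guides the migration of neurons into layers, while in the adult cortex it comes mainly from interneurons, among them somatostatin cells, and acts at synapses of neighboring neurons.

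Both receptors carry in their cytoplasmic tail an NPxY motif (asparagine, proline, any residue, tyrosine), on which Dab1 docks. The coding bases around it are shown because this short stretch is the place where 3 of the 4 members meet, with the codons of the motif in capitals. The stretches were read from GENCODE M21 transcripts on GRCm38, 5′ to 3′ on the plus strand.
*Vldlr*: atgaactttgacAATCCTGTGTACttgaag
*Lrp8*: atgaatttcgacAACCCAGTGTACaggaaa
The *Vldlr* stretch lies at chr19:27247928-27247957, in exon 18 of 19, and the *Lrp8* stretch at chr4:107869049-107869078, in exon 17 of 19, each of the protein-coding transcript with the longest coding sequence. They share 23 of 30 bases, and 10 of the 12 in capitals. On the same build *Reln* spans chr5:21884454-22344702 on the minus strand, *Vldlr* chr19:27216484-27254231, *Lrp8* chr4:107802261-107876840 and *Dab1* chr4:103619359-104744844, all 3 on the plus strand. The counts are of whole genes, so they do not tell which exons of a gene were read.

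The cells came from adult male and female SOM-Cre/Ai9 mice, in which cells that express *Sst*, or did so earlier, carry tdTomato, and the labels place them in L4 or L5 of the visual (V1) or somatosensory (S1) cortex. No group was treated, and all carry the same Cre driver and reporter. The content of each cell was drawn into the patch pipette after recording and amplified after Smart-seq2, and reads carried no molecular identifiers. Of the sequenced cells, 9 were set aside: 4 had fewer than 1500 genes with a read, 1 V1 L5 cell had more *Slc17a7* reads than *Gad1* plus *Gad2* reads and was called glutamatergic, and 4 S1 L4 cells had no *Sst* read and are described apart.

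This left 42 cells of V1 L4, 34 of S1 L4, 17 of V1 L5 and 16 of S1 L5, with 97904 to 3295232 reads on genes and a median of 1111833. Since no label ties a cell to an animal, the cells of an area and layer together counted as 1 sample. The cells were not tested, and a share or a level of pooled reads has an interval for counting error only. The date in each label gave 9 label days in 2 series, with all L5 cells in the first series. The spread of a difference is its SD over the label days with at least 2 cells of each group, and since the study's methods give fewer mice than there are label days, some of these days share an animal. The list of SOM interneuron markers has 8 genes, *Sst*, *Gad1* and *Lhx6* among them. Since a cell was kept only with an *Sst* read, a read of this list in every kept cell was fixed in advance. Taken singly, *Gad1* was also read in every kept cell, but *Lhx6* in 88, *Elfn1* in 94 and *Sox6* in 95 of them. CPM stands for counts scaled to the same total in each cell.

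Between genes, levels were compared per length, on the deposited RPKM values. *Reln* was the highest of the 4 members, with a mean log2(RPKM + 1) of 4.96 ± 0.71 (SD over the means of 9 label days, all kept cells). *Lrp8* followed with 2.59 ± 0.60 and *Vldlr* with 2.4 ± 0.57, and these did not differ beyond their spread. *Dab1* was lowest, at 1.43 ± 1.25, within its spread of both *Vldlr* and *Lrp8*. Its RPKM rested on a shorter gene model in 13 cells, as described below. The gene model of *Lrp8* also varied in length between cells. Within single cells, the RPKM of *Reln* was above that of *Vldlr* in 86 cells, above that of *Lrp8* in 88 and above that of *Dab1* in 91 of all kept cells.

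The order of the members was different in V1 L5. There the mean log2(RPKM + 1) was 2.88 ± 1.61 for *Reln*, 2.89 ± 0.55 for *Vldlr*, 2.61 ± 0.26 for *Lrp8* and 1.13 ± 0.89 for *Dab1* (SD over the means of 4 label days, n = 17 cells), so the ligand did not stand above its receptors. *Reln* had the higher RPKM than *Vldlr* in 8 of 17 V1 L5 cells and the lower in 7, against 13 and 3 of 16 S1 L5 cells.

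*Reln*, the ligand, is given from here on as log2(CPM + 1). It ranged from 0.00 to 11.06 with a median of 9.49 in V1 L4, and from 0.00 to 11.15 with a median of 9.69 in S1 L4. In L5 it ranged from 0.00 to 9.65 with a median of 6.37 in V1, and from 1.57 to 11.02 with a median of 9.19 in S1. All 4 ranges overlapped, and the V1 L5 cells lay lower. *Reln* was read in 40 of 42 V1 L4 cells (95.2%, 95% Clopper-Pearson interval 83.8 to 99.4), 33 of 34 S1 L4 cells (97.1%, 84.7 to 99.9), 13 of 17 V1 L5 cells (76.5%, 50.1 to 93.2) and 16 of 16 S1 L5 cells (79.4 to 100). These intervals overlap. Of the cells at 7 or more, a line set after the values were seen, 35 and 29 were in L4 of V1 and S1, and 7 and 12 in L5. Pooled over the cells of a group, the level in L4 was 683 CPM in V1 (95% Poisson interval 676 to 690) and 692 CPM in S1 (685 to 700). In L5 it was 239 CPM in V1 (232 to 246) and 564 CPM in S1 (554 to 575).

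**Figure D1:**
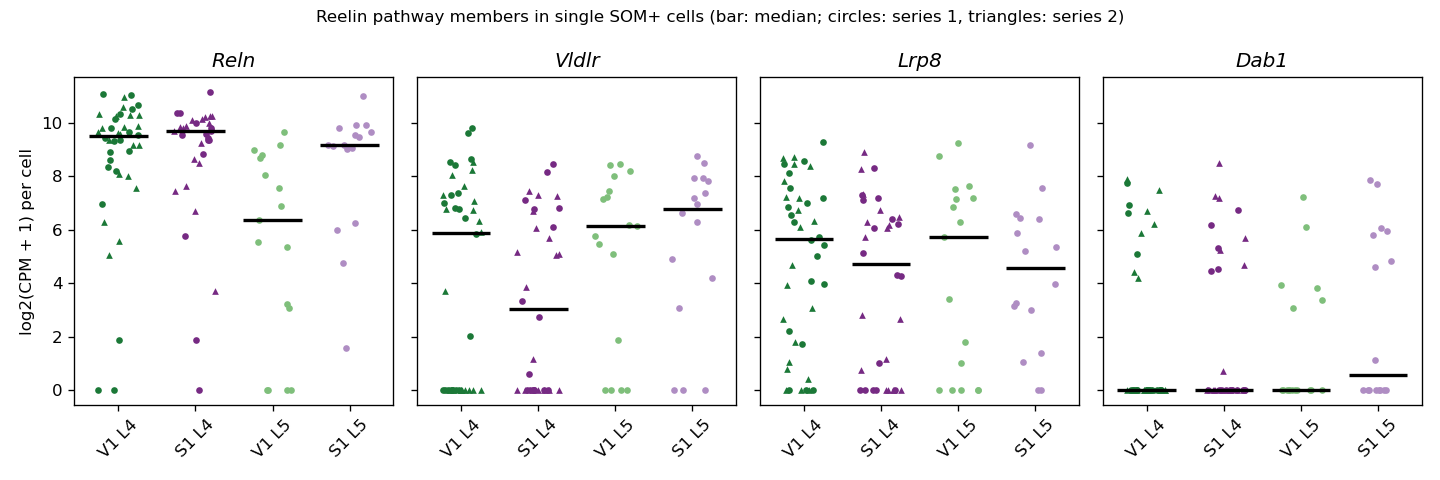
Level of the 4 members in each kept cell as log2(CPM + 1), by area and layer; a point is 1 cell, circles are cells of the first label series, triangles of the second, and the bar is the median. The *Reln* medians are 9.49 and 9.69 in L4 of V1 and S1, and 6.37 and 9.19 in L5, while 11 of 42 V1 L4 and 12 of 34 S1 L4 cells have a *Dab1* read.

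Between the areas in L5, mean *Reln* was 8.35 in S1 and 5.37 in V1. The difference of 2.97 was larger than its SD of 1.84 over 4 label days, and was 2.90, -0.25, 3.08 and 3.98 on label days 3, 4, 5 and 6. Day 4 was the exception, on which the 3 V1 L5 cells had a mean of 9.04 and the 5 S1 L5 cells one of 8.79. Of the 3 members with at least 32 counts in at least 10 compared cells, which left out *Dab1*, *Reln* alone differed by 1 or more. Beside it, 23.6% of 6402 genes were higher in S1 L5 by at least 1 and 10% were lower, with a median over genes of 0.24. The absolute difference was smaller than that of *Reln* for 99.4% of these genes. After random thinning of the cells to 250000 reads, without 3 shallow L5 cells, it was 3.03, and among cells with at least 4000 detected genes 2.78. In the shallowest V1 L5 cell a count of 0 allows up to 30.6 CPM. Among V1 L5 cells with at least 4000 detected genes *Reln* was read in 80.0%.

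The same 17 V1 L5 cells enter the comparison of the layers in V1. Against the V1 L4 cells of the first series, at a mean of 8.23, *Reln* was lower in V1 L5 by 2.85 on the log2 scale (difference -2.85, SD 3.14 over 2 label days), which did not exceed that spread. The difference was -4.59 on day 3 and -0.15 on day 5. Of 6696 genes, 22.3% were higher in V1 L5 by at least 1 and 15.6% lower, while 1 of 3 members was lower and 0 were higher. The difference of *Reln* was larger in size than that of 98.7% of these genes.

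The 16 S1 L5 cells likewise enter both comparisons. In S1 the layers had nearly the same mean, 8.35 in L5 and 8.43 in L4, a difference of -0.08 (SD 1.03 over 3 label days). Within label days, however, S1 L5 was lower on 3 of 3 days, by -2.73, -0.76 and -1.24. The 4 S1 L4 cells of label day 2, which has no L5 cells, had a mean of 4.70, and without that day the difference over all cells was -1.32. Without day 3 it was 0.96. None of the members was lower in S1 L5 by at least 1, where 9.8% of 6492 genes were lower and 23.3% higher.

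Between the areas in L4, mean *Reln* was 8.73 in S1 and 8.62 in V1. The difference of 0.10 was far below its SD of 3.05 over 5 label days, with single days from -4.34 to 4.16. The low end was again day 2, with 11 V1 L4 cells at a mean of 9.04. None of the 4 members differed by 1 or more between the L4 groups, where 8.12% of 9201 genes were higher in S1 and 7.66% lower.

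**Figure D2:**
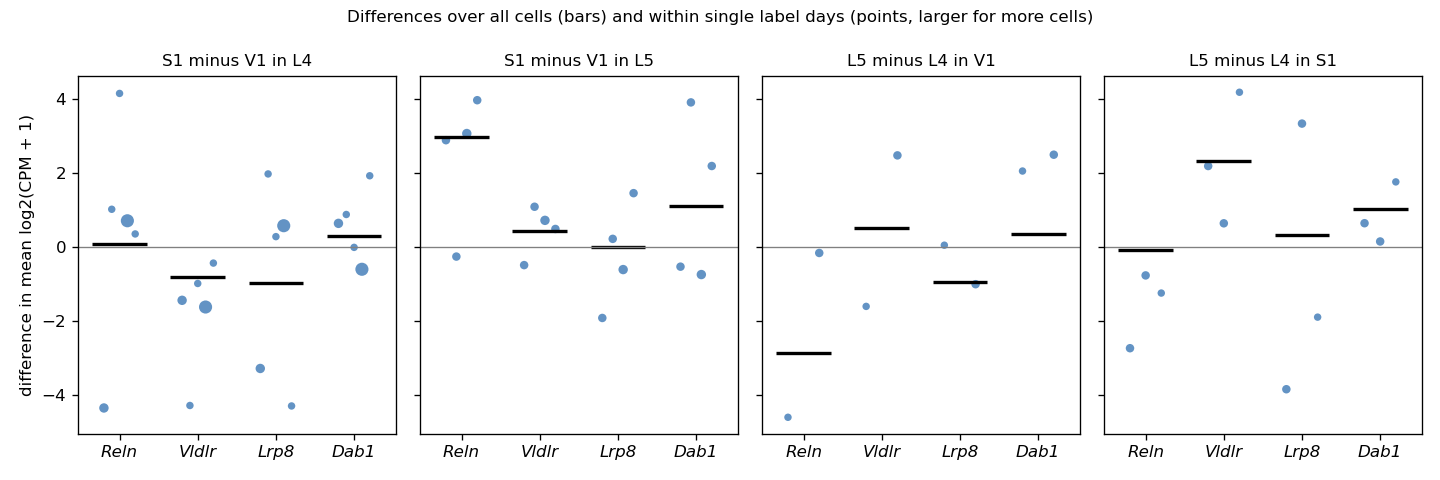
Difference in mean log2(CPM + 1) of each member in the 4 comparisons; bars are the differences over all compared cells and points those within single label days, with larger points for more cells. *Reln* in L5 has 3 of 4 days near or above its bar at 2.97, and *Vldlr* is below 0 on all 5 days of the L4 comparison.

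*Reln* was set against *Hpse* and *Calb2*, which mark different somatostatin types. *Hpse* encodes heparanase, an enzyme that cuts heparan sulfate, and *Calb2* the calcium-binding protein calretinin. The 55 cells with an *Hpse* read had a *Reln* median of 9.69, with a range of 3.72 to 11.06, and all of them had *Reln* reads. The 54 cells without an *Hpse* read had a median of 7.83, from 0.00 to 11.15, and held all 7 cells without a *Reln* read. Cells with *Hpse* were thus almost always high in *Reln*, whereas cells without it were spread over the whole range.

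*Reln* was below 7 in 2 of the 55 cells with an *Hpse* read and in 24 of the 54 without. By group, this was 0 of 22 against 7 of 20 cells in V1 L4, and 1 of 23 against 4 of 11 in S1 L4. In L5 it was 0 of 4 against 10 of 13 cells in V1, and 1 of 6 against 3 of 10 in S1. The share of low cells was higher among cells without *Hpse* reads in each of the 4 groups. In S1 L4 this rested mostly on label day 2. None of its 4 S1 L4 cells had an *Hpse* read, and their *Reln* levels were 0.00, 5.76, 11.15 and 1.89. The Pearson r over cells in L4 was 0.43 in V1 (n = 42) and 0.39 in S1 (n = 34), and in L5 it was 0.55 (n = 17) and 0.35 (n = 16). With values centered on the mean of their label day, area and layer it was 0.17 in S1 L4, and 0.34 over all kept cells. *Reln* and *Hpse* of the same cell share its library depth and label day. The r with the log10 of the total count over all kept cells was -0.04 for *Reln* and -0.02 for *Hpse*.

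For *Calb2* the relation to *Reln* was not the same in each group. The 28 cells with a *Calb2* read had a *Reln* median of 9.26 and the 81 without one of 9.36, and r over all cells was 0.00. In V1 L4, where 20 of 42 cells had *Calb2* reads, r was -0.20, and *Reln* was below 7 in 5 of these 20 cells and in 2 of the other 22. Both V1 L4 cells without a *Reln* read had *Calb2* reads. In V1 L5, r was 0.35, and the 3 cells with a *Calb2* read had a *Reln* median of 8.69 against 5.45 in the other 14. No S1 L5 cell had a *Calb2* read.

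**Figure D3:**
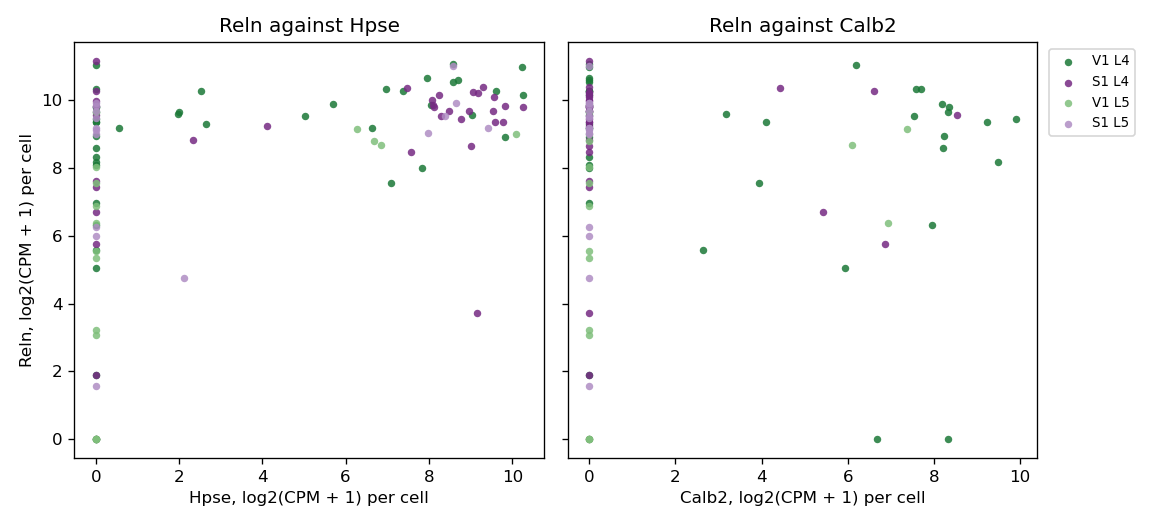
*Reln* against *Hpse* (left) and *Calb2* (right) in the kept cells, both axes as log2(CPM + 1), colored by area and layer. To the right of 0 on the *Hpse* axis 2 of 55 cells lie below a *Reln* level of 7, against 24 of the 54 cells at 0, and on the *Calb2* axis 8 of 28 do, against 18 of 81.

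The genes most like *Reln* over the kept cells were found by the Pearson r of log2(CPM + 1), centered on the mean of each area and layer, among 9992 genes. The middle 95% of genes had an r between -0.22 and 0.18. *Hpse* was highest at 0.42, followed by *Pdyn*, the precursor of dynorphin, at 0.42, *Ryr2*, a calcium release channel, at 0.40, *Col11a1*, a fibrillar collagen chain, at 0.37, and *Sidt2*, a lysosomal membrane protein, at 0.37. All of these genes had, like *Reln*, their lowest mean in V1 L5. For *Pdyn* the means were 8.09 and 9.06 in L4 of V1 and S1, and 3.54 and 6.58 in L5. Its r with *Reln* was 0.47 and 0.53 in L4 of V1 and S1, and 0.05 and 0.74 in L5. The lowest values were those of *Prkg2*, a cGMP-dependent protein kinase, at -0.43, *Cluap1*, a protein of intraflagellar transport, at -0.42, *Ptprt*, a receptor-type tyrosine phosphatase, at -0.40, *Grb10*, an adaptor of growth factor receptors, at -0.38, and *Pcdhb14*, a protocadherin, at -0.37. *Prkg2* had -0.61 in V1 L4 and -0.75 in S1 L4 but 0.12 and 0.07 in V1 and S1 L5. With values centered also on label days the 10 genes kept their signs, at 0.32 to 0.42 and -0.50 to -0.28.

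*Vldlr*, a receptor of reelin, ranged from 0.00 in every group to highest cells of 9.81 and 8.45 in L4 of V1 and S1, and of 8.44 and 8.76 in L5. Its medians were 5.89, 3.03, 6.16 and 6.79 in the same order, with S1 L4 lowest. It was read in 24 of 42 V1 L4 cells (57.1%, 41 to 72.3), 20 of 34 S1 L4 cells (58.8%, 40.7 to 75.4), 13 of 17 V1 L5 cells (76.5%, 50.1 to 93.2) and 13 of 16 S1 L5 cells (81.2%, 54.4 to 96.0). *Vldlr* was thus read in like shares of the L4 cells of both areas, while the level in the cells with a read had a median of 7.19 in V1 L4 and 6.08 in S1 L4.

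In L4, mean *Vldlr* was 3.26 in S1 and 4.07 in V1. The difference of -0.81 was within its SD of 1.49 and had the same sign on 5 of 5 label days, at -1.43, -4.27, -0.98, -1.61 and -0.42. On label days 3, 5 and 8, 1 of the groups had only 2 cells. The share of all genes with 1 sign on every day, whatever their size, was not taken. The mean within days was -1.74. Pooled, S1 L4 was at 47.2 CPM (45.3 to 49.2) and V1 L4 at 125.4 CPM (122.4 to 128.5). In the second series alone the difference was -0.26.

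The excitatory neuron markers, as a list of 5 genes, had a pooled level of 261 CPM in S1 L4 (4.69 to 1070 per cell) and 363 CPM in V1 L4 (63.4 to 1090), mostly from *Camk2a*, which every kept cell had. Their summed level had an r of 0.33 with *Vldlr* over the kept cells, after centering on each area and layer. Their part in the *Vldlr* difference was not tested. *Slc17a7*, the vesicular glutamate transporter of these neurons, was at 4.35 and 4.4 CPM in S1 and V1.

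*Vldlr* was higher in L5 than in L4 of S1, with means of 5.47 and 3.13. The difference of 2.34 was larger than its SD of 1.78 over 3 label days and was above 0 on each of them, at 2.20, 0.65 and 4.19. It was larger in size than that of 96.2% of the genes compared. With the 4 S1 L4 cells without an *Sst* read included it was 1.35. In V1 the layers had means of 5.03 and 4.51, a difference of 0.52 with an SD of 2.89, and the days went in opposite directions. Between the areas in L5 the difference was 0.44 (SD 0.67), with S1 higher on 3 of 4 days. Whether the layer difference itself differs between S1 and V1 was not tested.

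*Lrp8*, the other receptor, was read in 36 of 42 V1 L4 cells (85.7%, 71.5 to 94.6), 24 of 34 S1 L4 cells (70.6%, 52.5 to 84.9), 12 of 17 V1 L5 cells (70.6%, 44 to 89.7) and 14 of 16 S1 L5 cells (87.5%, 61.7 to 98.4). Its lowest value was 0.00 in all 4 groups, its medians were 5.67, 4.72, 5.71 and 4.58, and its highest cells lay between 8.92 and 9.28. Many of its reads were few, and with at least 5 counts asked for it was detected in 73 rather than 86 cells. The groups overlapped throughout.

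The differences of *Lrp8* were -0.95 (SD 2.69) for S1 minus V1 in L4, 0.00 (SD 1.42) in L5, -0.95 (SD 0.75) for L5 minus L4 in V1 and 0.32 (SD 3.71) in S1. That in V1 was larger than its spread, but it was below 0 on 1 label day and 0.06 on the other. *Lrp8* thus moved with neither area nor layer on every label day in any of the 4 comparisons. Label day 2 had 4 S1 L4 cells at a mean of 1.80 and 11 V1 L4 cells at 5.07.

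Most cells held reads of at least 1 receptor. Both receptors were read in 57 cells (52.3% of those kept, 42.5 to 61.9), *Lrp8* without *Vldlr* in 29 (26.6%, 18.6 to 35.9), *Vldlr* without *Lrp8* in 13 (11.9%, 6.51 to 19.5) and neither in 10 (9.17%, 4.49 to 16.2). In V1 L4, 15 cells had *Lrp8* alone and 3 had *Vldlr* alone, whereas in V1 L5 3 and 4 did. With at least 5 counts asked for, the numbers in V1 L4 were 15 and 8, and after thinning 14 and 6. S1 L5 had the highest share of cells with both, 12 of 16 (75%, 47.6 to 92.7), and S1 L4 the lowest, 15 of 34 (44.1%, 27.2 to 62.1), with intervals that overlap. When each cell was thinned to 250000 reads, both were read in 45 cells. The r of the receptors over all cells was 0.02, and by group it lay between -0.16 and 0.26.

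**Figure D4:**
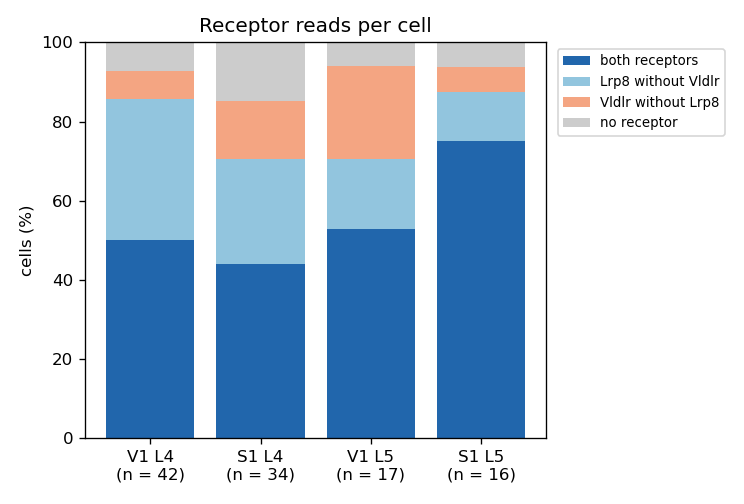
Share of kept cells (%) with reads of both receptors, of *Lrp8* without *Vldlr*, of *Vldlr* without *Lrp8* and of neither, by area and layer, with the number of cells under each bar. The share with both is 50% and 44.1% in L4 of V1 and S1, and 52.9% and 75% in L5.

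*Dab1*, the adaptor that binds the NPxY stretches shown above, was the sparsest member. It was read in 11 of 42 V1 L4 cells (26.2%, 13.9 to 42), 12 of 34 S1 L4 cells (35.3%, 19.7 to 53.5), 6 of 17 V1 L5 cells (35.3%, 14.2 to 61.7) and 8 of 16 S1 L5 cells (50%, 24.7 to 75.3). Its median was 0.57 in S1 L5 and 0.00 in the other groups, and the highest cells were at 7.90, 8.49, 7.23 and 7.85. A cell either had no *Dab1* read or, with few exceptions, a clear number of them, since 35 of the 37 cells with a read had at least 5.

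Mean *Dab1* was 2.75 in S1 L5 and 1.70 in the S1 L4 cells of the first series. The difference of 1.04 was larger than its SD of 0.83 and was above 0 on 3 of 3 label days, at 0.65, 0.16 and 1.77. Together with *Vldlr*, *Dab1* made 2 of 4 members higher in S1 L5 by at least 1, beside the 23.3% of genes given above. With the cells without an *Sst* read included it was 0.59. Between the areas in L5 the means were 2.75 in S1 and 1.62 in V1, a difference of 1.13 within its SD of 2.24. That value rested on label day 4, without which it was 0.25, while without day 5 it was 1.85, and *Dab1* did not pass the filter there. The remaining differences were 0.31 (SD 0.95) between the areas in L4 and 0.36 (SD 0.31) between the layers in V1, where *Dab1* also did not pass the filter. The latter was 2.06 and 2.50 within its 2 label days, and was -0.51 without label day 2.

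The counts and RPKM values of *Dab1*, and to a lesser extent those of *Lrp8*, went together differently in different cells. The length in kb of the gene model on which the reads were counted was taken from the ratio of CPM to RPKM. This ratio was first scaled in each cell by a factor common to its genes, since the plain ratio varied between cells even for *Reln*. For *Reln* the length after scaling was 11.4 kb in every cell with at least 5 counts and for *Vldlr* 8.02 to 8.10 kb. *Lrp8* lay between 5.47 and 7.32 kb, with most cells near 5.47 or 7.11 kb. For *Dab1* it was below 2 kb, a line set after the values were seen, in 13 cells, with a median of 1.16 kb, and above in 22, with a median of 5.20 kb. The cells nearest the line were 2 S1 L5 cells at 1.96 and 2.51 kb, with 425 and 312 counts. The 13 cells came from 6 label days and had 8 to 565 counts, and 3 and 7 were in L4 of V1 and S1, and 2 and 1 in L5.

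In GENCODE M21 the *Dab1* coding transcripts run from 0.641 to 5.28 kb, and 4 of 5 are under 2 kb. An RPKM of *Dab1* is therefore larger by the ratio of these lengths in some cells than in others at the same count. Whether the reads in the 13 cells came from short transcripts was not tested.

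**Figure D5:**
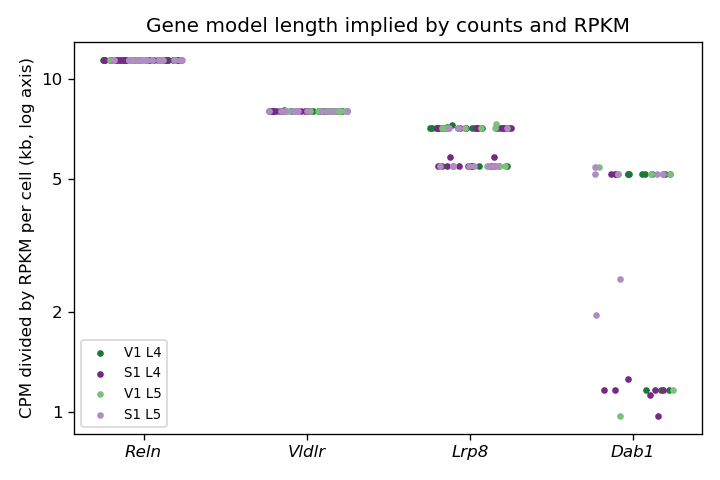
Length of the counted gene model in each kept cell with at least 5 counts of the member, in kb on a log axis. It is the ratio of CPM to RPKM after scaling by a factor common to the genes of a cell, and is colored by area and layer. *Reln* and *Vldlr* lie on 1 line each, and *Lrp8* between 5.47 and 7.32 kb, with most cells near 5.47 or 7.11 kb. *Dab1* lies from 0.973 to 5.46 kb, with most cells near 1.16 or 5.20 kb and 2 S1 L5 cells between them at 1.96 and 2.51 kb.

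Over all kept cells no pair of members had an r beyond 0.12 in size, while single groups differed. The r of *Reln* was -0.10 with *Vldlr*, 0.12 with *Lrp8* and 0.04 with *Dab1*, and that of *Dab1* was 0.05 with *Vldlr* and -0.05 with *Lrp8*. *Reln* and *Vldlr* had an r of -0.33 in V1 L4 and of 0.18 in S1 L4, where it was -0.02 without label day 2. *Lrp8* and *Dab1* had an r of 0.57 in V1 L5 (n = 17, 0.65 with values centered on label days) and of -0.36 in S1 L4 (n = 34). *Reln* had an r of 0.42 with *Lrp8* in V1 L5 and of -0.40 with *Dab1* in S1 L5 (n = 16). The groups thus went in opposite directions for some pairs. *Reln* and at least 1 receptor were read in 93 cells (85.3%, 77.3 to 91.4). *Reln* was read in 93.6% of the kept cells and neither receptor in 9.17%, so a share of this size already follows from the single shares. Ligand, a receptor and *Dab1* were read in 32 (29.4%, 21 to 38.8), and all 4 members in 23 (21.1%, 13.9 to 30). All 37 cells with a *Dab1* read also had *Reln* reads, and 5 of them had reads of neither receptor.

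The genes most like the other members were found in the same way. *Vldlr* was most like *Kansl1*, a subunit of a histone acetyltransferase complex (r = 0.41), *Gas7* (0.38) and *Miat*, a long noncoding RNA (0.37). *Lrp8* was most like *Acsl3*, an acyl-CoA synthetase (0.39), *Fbxo11*, an F-box protein (0.37), and *Bdp1*, a subunit of an RNA polymerase III factor (0.37). *Dab1* was most like *Klhl14* (0.40), *Xrcc6*, a subunit of the Ku DNA end-binding protein (0.38), and *AI593442* (0.34). No member was among the closest genes of another.

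Around the members, a list of 51 other genes of the pathway was read in 3 parts. In the part on extracellular processing and other ligands, the 4 ADAMTS proteases, which cut reelin or related matrix proteins, *Adamts2*, *Adamts3*, *Adamts4* and *Adamts5*, were read in 1, 10, 2 and 13 of the kept cells. *Plat*, tissue plasminogen activator, was read in 57. *Apoe* and *Clu*, which bind the same receptors, were read in 84.4% and 94.5% of the kept cells, with a median of 84.3 and 278 RPKM. *Selenop* was not found under this symbol.

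Of the other receptors of the family, *Lrp1* was read in 97 cells, and *Lrpap1*, the chaperone of these receptors, in 94. In the signaling part, *Fyn*, the main kinase of Dab1, was read in 82 cells, *Src* in 51 and *Yes1* in 51. The adaptors *Crk* and *Crkl* were read in 81 and 69, and *Pafah1b1*, the gene of Lis1, in 91.7% of the kept cells. These signaling genes were read in more cells than *Dab1* itself, which was read in 37. Others of this part were read in fewer, *Nck2* in 29 and *Dab2* in 10.

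Of this list, 37 genes could be compared between the L4 areas, where 3 were higher in S1 by at least 1 and 4 lower, with a median difference of 0.08. That is close to the 8.12% and 7.66% of all genes. In L5, 4 of 28 were higher in S1 and 2 lower (median 0.19). Between the layers, 7 of 30 were higher in L5 and 3 lower in V1 (median 0.49), and 3 of 26 were higher and 3 lower in S1 (median 0.02). The median over all genes compared was 0.01, 0.24, 0.15 and 0.27 in these comparisons, and the share of the list that was higher lay near that of all genes between the areas in L4 and between the layers in V1, and below it in the other comparisons.

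Few genes of the list also had the same sign on every label day. *Dab2ip*, a Ras GTPase-activating protein named for its binding to Dab2, was lower in S1 L4 than in V1 L4 by 1.96 (difference -1.96, SD 1.99, 5 of 5 days). It was higher in S1 L5 than in V1 L5 by 2.03 (SD 1.40, 4 of 4 days), and in V1 it was lower in L5 than in L4 (-1.53, SD 0.50, 2 of 2 days). *Pafah1b1* was higher in S1 L5 than in V1 L5 by 2.31 (SD 1.96, 4 of 4 days). These are opposite directions of *Dab2ip* in the L4 and L5 comparisons.

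Higher in V1 L5 than in V1 L4 on 2 of 2 days were *Plat* (1.03, SD 2.4), *Sorl1*, a sorting receptor (1.31, SD 0.68), *Crk* (1.66, SD 0.46) and *Rnf7*, a subunit of the ligase that degrades active Dab1 (1.41, SD 0.08). In S1, *Limk1*, a kinase of cofilin, was higher in L5 by 1.28 (SD 1.26), and *Snx17*, a sorting nexin that recycles receptors of this family, was lower (-1.87, SD 1.64), as was *Crkl* (-1.33, SD 1.62), each on 3 of 3 days. Of all genes compared, 8.38% were higher by at least 1 on both days in V1 L5, and 10.4% on all 3 days in S1 L5.

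Cells other than SOM+ interneurons that are known to make reelin were looked for by their markers. The list of 4 Cajal-Retzius genes, *Trp73*, *Lhx1*, *Lhx5* and *Ebf3*, was read in 5 of the kept cells, with a pooled level of 0.000 to 4.18 CPM by group and all 4 genes at 0 in S1 L5. Of the Lamp5 interneuron list, *Lamp5* was read in 13 and *Ndnf* in 9 cells, at up to 2.69 and 50.2 CPM pooled by group. *Npy* of that list, which SOM+ cells also express, was at 770 to 1770 CPM. The *Reln* level had an r of 0.05 with the Cajal-Retzius list and of 0.17 with the Lamp5 list over cells.

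The 4 S1 L4 cells without an *Sst* read had another profile of the members. *Reln* had 0, 0, 189 and 7 counts in them, and *Vldlr* 344, 274, 669 and 98 counts, which is 229 to 319 CPM per cell. *Lrp8* was read in all 4, at 28.7 to 423 CPM, and *Dab1* in 3, with 37, 77 and 74 counts. Pooled, they held 35.6 CPM of *Reln* (30.8 to 40.9) and 251 CPM of *Vldlr* (238 to 265), beside 692 and 47.2 CPM in the kept S1 L4 cells. *Pvalb*, the marker of another interneuron class, was read in all 4, at 94.4 to 921 CPM. The paper excluded 3 fast-spiking cells with no *Sst* reads that mapped to a *Pvalb* type, and took them as likely basket cells. The labels do not tell which cells these were. The same 4 cells are the ones added wherever cells without an *Sst* read were included in a comparison. The single glutamatergic V1 L5 cell held 164.5 CPM of *Reln*, 329 of *Vldlr*, 246 of *Lrp8* and 2 counts of *Dab1*.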

How the data were processed

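Single-cell libraries of SOM+ cells were sequenced as single-end reads. The authors aligned them to mm10 with STAR 2.4.2a (bcl2fastq 2.20 is also in the submitters' processing notes) and deposited read counts per gene, without normalization, and RPKM values from rpkmforgenes with RefSeq models. Here entries of 1 symbol were summed (24490 to 23998), every column was used, and counts were scaled to the total of the cell, as log2(CPM + 1). Counting was not stated to use strand, and *Reln* and *Lrp8* overlap annotated antisense genes. Groups came from the labels. A cell was kept with 1500 or more detected genes, with *Slc17a7* not above the sum of *Gad1* and *Gad2*, and with an *Sst* read. Compared genes had at least 32 counts in at least 10 cells. Called means a difference of at least 1. Named genes were the members, pathway genes past 1 with 1 sign on every label day, and the 5 highest and 5 lowest r with *Reln* (3 highest for the others). Further pathway genes were named by role, after their values were seen, with the number of cells that held them. Members and lists were chosen with earlier results of these data known. The median difference over genes reached 0.27, so changes are relative to it. Alternatives changed the pseudocount, scaling, depth, days and filters. Difference and thinning functions were tested on simulated data. Software was edgeR 4.0.16 (TMM factors only) in R 4.3.3, and SciPy 1.17.1, NumPy 2.4.6, pandas 2.3.3 and matplotlib 3.10.9 in Python 3.11.15. Coordinates are from GENCODE M21.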

Additional observations from a re-analysis of the deposited data

Results flagged for a closer look

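*Dab2ip* moved in opposite directions between the areas in the 2 layers, on every label day: the difference of S1 minus V1 was -1.96 in L4 (5 of 5 days) and 2.03 in L5 (4 of 4 days). The difference between the layers was not tested. Of 6366 genes compared in both layers, 44 (0.691%) had opposite signs of this kind on every day.

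Reads of the members were also found in cells outside the comparisons. The 4 cells with an *Sst* count of 0 held 196 counts of *Reln*, 1385 of *Vldlr*, 356 of *Lrp8* and 188 of *Dab1*. The glutamatergic cell was at a log2(CPM + 1) of 7.37 for *Reln*, 8.37 for *Vldlr* and 7.95 for *Lrp8*. A count of 0 allows up to 3 counts, and all of these lay above it.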

How the results depend on the processing

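The labels give no replicate numbers to pair cells, and differences within label days stood in for a paired analysis. Differences of the members moved by more than their SD over days in 10 of 156 alternatives other than leaving out a day. The mean within days was -1.57 for *Reln* between the layers in S1 and 2.28 for *Dab1* in V1. Medians gave -2.86 for *Vldlr* between the areas in L4, 5.13 for *Vldlr* between the layers in S1, -0.012 for *Lrp8* in V1 and 0.00 for *Dab1* in V1. With the cells without an *Sst* read, *Reln* between the layers in S1 was 1.07. *Dab1* in V1 was 0.88 and 0.0047 with pseudocounts of 0.1 and 10, and 0.041 among cells with at least 4000 genes.

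Shares of cells moved in 4 of 68 alternatives: *Reln* in S1 L4 was read in 100% of the cells with at least 4000 genes, and *Lrp8* at 5 or more counts in 71.4% of V1 L4 and 67.0% of all cells, or 67.9% after thinning. Centering on label days gave an r of 0.34 for *Reln* with *Hpse* in all cells and 0.17 in S1 L4, 0.29 for *Vldlr* with *Calb2*, and 0.33 for *Reln* with *Vldlr* in S1 L4. Spearman's rho of *Reln* with *Hpse* was 0.53 in L4 of V1 and 0.25 in that of S1.

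Without 1 label day at a time, *Reln* between the layers in S1 ranged from -1.32 to 0.96 and *Dab1* in V1 from -0.51 to 1.335. The r of *Vldlr* with *Calb2* ranged from 0.075 to 0.234, that of *Reln* with *Hpse* in S1 L4 from 0.205 to 0.435, and that of *Reln* with *Vldlr* from -0.44 to -0.275 in V1 L4 and from -0.02 to 0.22 in S1 L4. The other 90 such differences and 170 correlations kept within the limits, which are the SD over days for a difference and 0.1 for an r. Where that SD is wide, a difference could change sign within it. *Lrp8* ranged from -0.62 to 1.88 between the layers in S1 and from -0.34 to 0.33 between the areas in L5. *Reln* between the areas in L4 ranged from -0.19 to 0.79.

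With the same sign on every label day also asked for, the share of all genes past a difference of 1 was 1.3% higher and 1.89% lower in S1 L4, and 8.54% and 4.15% in S1 L5. Between the layers it was 8.38% higher and 10.2% lower in V1, and 10.4% and 4.71% in S1. Of the pathway list 0 genes were then higher and 1 lower in S1 L4, 2 and 0 in S1 L5, 4 and 1 in V1 L5, and 1 and 2 in S1 L5 against S1 L4. With all genes of at least 1 count, the shares were 4.55% and 4.35%, 14.9% and 6.26%, 12.8% and 9.47%, and 14.8% and 6.4% in the same order, with 6 genes of the list lower in V1 L5, and 6 higher and 6 lower in S1 L5. Scaling by TMM factors, thinning and RPKM moved no difference of a member by more than its SD over days. Depth bore most on the share of cells with an *Lrp8* read, which was 78.9% before thinning and 67.9% after, against 33.9% and 33% for *Dab1*.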
